A study of Mus musculus with 6 samples.

Results

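Genes of the urea cycle and of amino acid breakdown were followed in the livers of mice with and without the transcription factor Slug in hepatocytes. The group was set by name, from a list of 41 genes. Of these, 36 had a probe set that names them alone, among 22180 genes measured in all. Gls2, Gstz1, Sds, Sdsl and Tdh had none and are not analysed here, except that Gstz1 shares 1 probe set with a neighbouring gene. All mice were male C57BL/6J. From the age of 8 weeks they ate a diet in which fat supplied 60% of the calories, for 11 weeks. The 3 Con mice carry floxed Slug alleles (Slug f/f). The 3 HKO mice are their littermates and carry the floxed alleles with albumin-CreERT2, a Cre recombinase that acts after an inducing drug and is driven by the albumin promoter of hepatocytes. Whether Con mice carried the Cre, and whether or how it was induced in either group, is not stated in the labels. The comparison asks how liver transcripts differ when hepatocytes lack Slug during high fat feeding.

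The liver breaks down most dietary amino acids. Aminotransferases and dehydrogenases take off the nitrogen, the urea cycle turns the resulting ammonia and the nitrogen of aspartate into urea, and the carbon skeletons go to glucose, ketone bodies or carbon dioxide. Hepatocytes near the portal vein carry most of the urea cycle and of histidine and serine breakdown, whereas those around the central vein capture leftover ammonia as glutamine. Methionine has a cycle of its own in the liver, in which S-adenosylmethionine gives up its methyl group and homocysteine is either recycled or passed on to cysteine.

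The arrays fit their labels. Snai2, the gene of Slug, averaged 7.61 (SD 0.19, n = 3) on the log2 scale in Con and 5.18 (SD 0.54) in HKO, with a limma adjusted p of 0.0145. Leaving out Con replicate 1 raised that p to 0.0758, leaving out Con replicate 2 to 0.0927, and leaving out HKO replicate 2 to 0.0621. The labels do not say where the probes lie relative to the floxed part. The hepatocyte marker albumin (Alb) read between 12.40 and 12.48 on all arrays, while Serpina1a, another of the 7 measured hepatocyte markers, was wholly higher in HKO (0.40 on the log2 scale, adjusted p = 0.240).

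None of the 36 genes passed the test across all genes, and most differences were small and upward. In limma, 0 of 36 had an adjusted p under 0.05, where 45 of 22180 genes (0.203%; 0.0902% higher and 0.113% lower) did, and the lowest adjusted p among them was 0.136. At an unadjusted p under 0.05 stood 12 of 36 (33.3%), 11 higher and 1 lower in HKO, beside 11.9% of all genes (5.31% higher, 6.56% lower). Leaving out Con replicate 1 gave 6 such genes (16.7%; all genes 9.20%), and leaving out HKO replicate 1 gave 7 (19.4%; all genes 11.6%). Leaving out Con replicate 2 gave 3 (8.33%), a share no higher than that of all genes (9.01%). All 3 HKO values lay above all 3 Con values for 14 of 36 genes (38.9%) and below for 0, beside 18.2% of all genes (8.05% above, 10.1% below). Most of the list is well expressed, and such genes differ more often: among the 8120 genes with a mean above log2 5, 21.4% had an unadjusted p under 0.05 and 27.5% had groups that did not overlap, against 14 of 34 (41.2%) of the members for both counts. The median log2 difference was 0.09 over the 36 genes and -0.01 over all genes. The differences ran from -0.47 to 0.52, so that 0 of 36 reached 1.5-fold. In bulk liver, fewer cells of a type and less RNA per cell cannot be told apart.

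**Figure D1:**
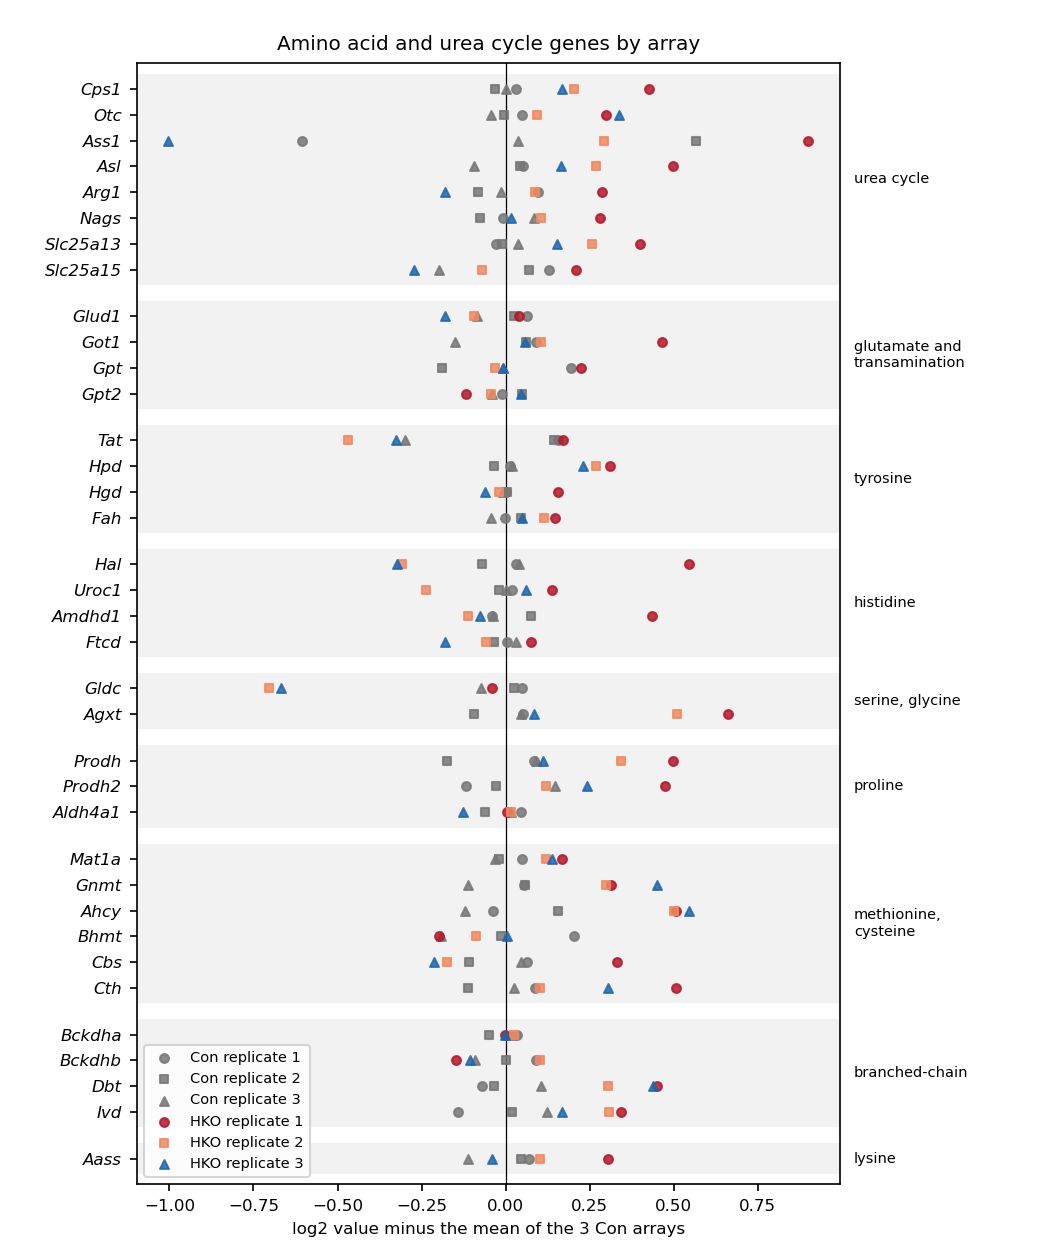
Each row is 1 gene, grouped by route, and each point is 1 array, as its log2 value minus the mean of the 3 Con arrays (grey for Con, coloured for HKO). The red circles of HKO replicate 1 are the highest point in 26 of 36 rows.

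The HKO arrays were not alike for these genes. HKO replicate 1 held the highest value of the 6 arrays for 26 of 36 genes (72.2%), beside 17.6% of all genes. It lay above every Con array for 29 of 36 genes, HKO replicate 2 for 18 and HKO replicate 3 for 16, whereas 26.7% to 28.0% of all genes did so on each of these arrays. Below every Con array were 3 genes on HKO replicate 1, 10 on HKO replicate 2 and 13 on HKO replicate 3, where 28.0%, 30.5% and 31.5% of all genes were. The SD was larger in HKO than in Con for 28 of 36 genes (77.8%; all genes 54.1%). Without HKO replicate 1, the median log2 difference of the 36 genes was 0.02. In that comparison 7 of 36 had an unadjusted p under 0.05 (all genes 11.6%), namely Hpd, Gnmt, Ahcy and Dbt higher and Tat, Hal and Gldc lower. Groups that did not overlap then numbered 22 of 36 (all genes 30.1%), 14 of them higher in HKO. Array values are therefore given for the members that the results turn on.

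Marker lists of other kinds also differed between the HKO arrays. The median of 9 periportal markers, taken relative to the Con mean, was 0.28 on HKO replicate 1, -0.27 on HKO replicate 2 and -0.25 on HKO replicate 3, and from -0.04 to 0.03 on the Con arrays. Its members were mixed. Hsd17b13 and Aldh1b1 were lower than Con on all HKO arrays, Pigr was higher on all of them, and Cdh1 was at 0.70 with overlapping groups. The median of 10 pericentral markers was 0.03, 0.40 and 0.03 on the same HKO arrays and from -0.05 to 0.03 on the Con arrays. These were mixed too, with Cyp1a2 and Cyp27a1 wholly higher in HKO and Glul wholly lower. Markers of recruited macrophages (7 genes) stood at -1.04, -0.37 and -0.51, and from -0.14 to 0.13 on the Con arrays. Stellate cell markers (8 genes) stood at -0.44, -0.36 and -0.29, and from -0.08 to 0.11 on the Con arrays. Of these, 4 of 8 were wholly lower in HKO, beside 10.1% of all genes. The 7 measured hepatocyte markers had medians from -0.04 to 0.06 over all arrays. The part of these in the results on amino acid genes was not tested.

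**Figure D2:**
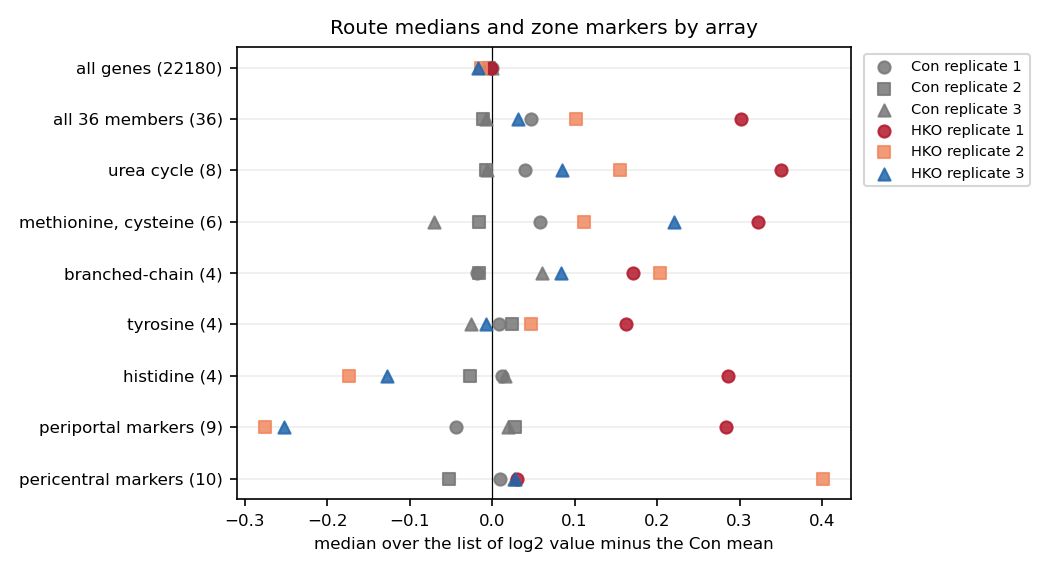
Each row is a gene list (number of genes in brackets) and each point is 1 array's median over that list of the log2 value minus the Con mean. Histidine genes and periportal markers lie to the right on HKO replicate 1 (0.29 and 0.28) and to the left on HKO replicates 2 and 3.

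The methionine route held the lowest p of the 36 genes. Of its 6 genes, 4 had HKO values wholly above Con values (Mat1a, Gnmt, Ahcy and Cth), 0 wholly below, and 3 an unadjusted p under 0.05 (Gnmt, Ahcy and Cth). Of all genes, 8.05% lay wholly above, 10.1% wholly below, and 11.9% had such a p. Among genes above log2 5, 27.5% had groups that did not overlap and 21.4% such a p. The routes were not tested as sets. Of all 36 genes, Ahcy, Gnmt and the branched-chain gene Dbt alone kept an unadjusted p under 0.05 without each of the 6 arrays in turn. The share of all measured genes that did so was not computed, so how common this is cannot be told.

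Ahcy encodes S-adenosylhomocysteine hydrolase, which clears the product of methyl transfer. Its log2 values were 8.26, 8.46 and 8.18 in Con and 8.81, 8.80 and 8.85 in HKO. The HKO arrays were nearly identical and all lay above Con. The difference was 0.52 ± 0.11 (SE; 1.43-fold), with an unadjusted p of 0.00127 and an adjusted p of 0.136 in limma. A second, dimmer Ahcy probe set (mean 4.52) stood at -0.27 ± 0.38 (SE), and the mean of both gave 0.12. On the filter for genes above log2 5 the adjusted p was 0.0291, and with a variance trend it was 0.0184.

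Gnmt encodes glycine N-methyltransferase, which uses up S-adenosylmethionine by making sarcosine from glycine. The Con arrays read 9.70, 9.70 and 9.53, and the HKO arrays 9.96, 9.94 and 10.09. No HKO value came near the Con range. Its log2 difference was 0.35 ± 0.10 (SE; 1.28-fold), with an unadjusted p of 0.00924 and an adjusted p of 0.266.

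The start regions of Gnmt and Ahcy are shown because these 2 genes had the lowest p of the route. Proteins of the Snail family bind the E-box letters CACCTG, or CAGGTG on the other strand. Each window runs from 250 bases before to 50 bases after the annotated start, is taken from RefSeq (GRCm38.p6, minus strand for both, read 5′ to 3′ along the gene), and has any such E-box in capitals. The Gnmt window is chr17:46729116-46729415 and the Ahcy window chr2:155074448-155074747.
Gnmt: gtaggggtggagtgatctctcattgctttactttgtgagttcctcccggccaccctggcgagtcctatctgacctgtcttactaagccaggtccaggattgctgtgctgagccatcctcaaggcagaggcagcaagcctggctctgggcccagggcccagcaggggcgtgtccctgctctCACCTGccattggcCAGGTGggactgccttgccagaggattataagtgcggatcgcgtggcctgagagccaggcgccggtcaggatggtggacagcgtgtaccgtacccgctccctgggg
Ahcy: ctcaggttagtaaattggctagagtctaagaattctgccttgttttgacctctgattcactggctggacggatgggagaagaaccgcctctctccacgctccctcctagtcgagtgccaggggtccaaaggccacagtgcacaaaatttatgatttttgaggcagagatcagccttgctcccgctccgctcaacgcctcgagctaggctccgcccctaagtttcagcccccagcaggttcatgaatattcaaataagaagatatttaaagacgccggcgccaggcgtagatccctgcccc
The Gnmt window holds 2 of these E-boxes, which begin 70 and 56 bases before the start, and the Ahcy window holds 0. Among the 29 measured members with a window in the RefSeq table, 8 (27.6%) had at least 1 such E-box, beside 22.6% of 27025 genes. These are letter matches only, and binding was not measured.

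Mat1a encodes the liver enzyme that makes S-adenosylmethionine from methionine. Con arrays stood at 11.60, 11.54 and 11.53 and HKO arrays at 11.72, 11.68 and 11.69. The groups were apart, by a small step of 0.14 ± 0.09 (SE) on the log2 scale (adjusted p = 0.609). Cth, cystathionine gamma-lyase, forms cysteine at the end of transsulfuration. It read 9.29, 9.09 and 9.22 in Con and 9.71, 9.30 and 9.50 in HKO, where replicate 2 only just exceeded the highest Con array. The log2 difference of Cth was 0.30 ± 0.13 (SE; adjusted p = 0.410), and 0.20 without HKO replicate 1.

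Cbs, cystathionine beta-synthase, is the enzyme before Cth, and its groups overlapped. Chosen after its values were seen, it read 9.14, 8.96 and 9.12 in Con and 9.40, 8.90 and 8.86 in HKO, so that HKO replicate 1 was above and the other two below all Con arrays. Its difference was -0.02, with a 95% interval from -0.38 to 0.34. Bhmt remethylates homocysteine with betaine. Its 1 probe set had a mean of 3.79, under the median gene level of 3.94, and is not shown to be above background, so its difference of -0.09 is no measure of the gene.

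**Figure D3:**
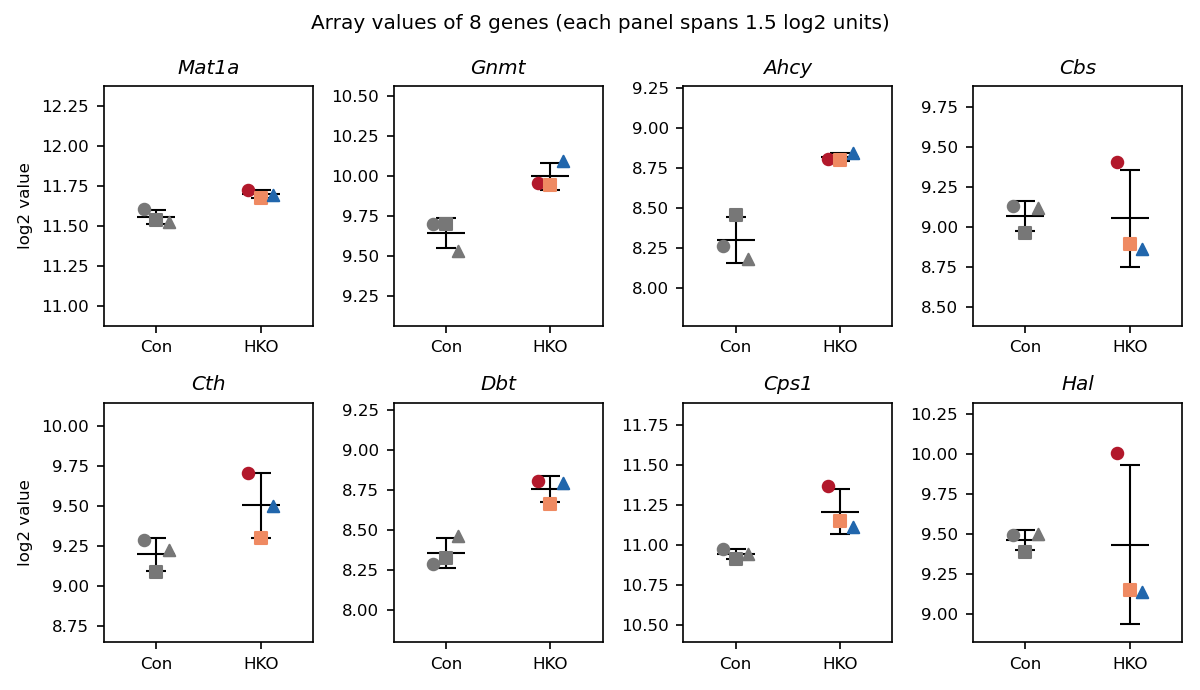
Log2 values of 8 genes by array, with replicates 1, 2 and 3 as circle, square and triangle, and black bars for the group mean and SD (n = 3). Gnmt, Ahcy and Dbt separate the groups with all HKO arrays close together, while Cbs and Hal are spread by HKO replicate 1 (9.40 and 10.01).

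Branched-chain amino acids are oxidised by a mitochondrial dehydrogenase complex. Of the 4 genes measured for this route, 2 were wholly higher in HKO and also had an unadjusted p under 0.05 (Dbt and Ivd), and 0 were wholly lower. Groups did not overlap for 18.2% of all genes and 27.5% of those above log2 5, and 11.9% and 21.4% had such a p. Dbt encodes the E2 core of the complex, which transfers the acyl group. Its log2 values were 8.29, 8.32 and 8.46 in Con and 8.81, 8.66 and 8.80 in HKO, with the groups apart. The difference was 0.40 ± 0.10 (SE; 1.32-fold), with an unadjusted p of 0.00469 and an adjusted p of 0.215 in limma (0.0446 with a variance trend).

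Bckdha and Bckdhb encode the alpha and beta subunits of E1, which carries out the decarboxylation. They stood at 0.01 (95% interval -0.21 to 0.22) and -0.05 (-0.31 to 0.21). The interval of Dbt, 0.16 to 0.64, overlaps both, and whether the subunits differ from each other was not tested. Ivd, isovaleryl-CoA dehydrogenase, acts further down the leucine route. Its Con values were 7.60, 7.76 and 7.86 and its HKO values 8.08, 8.05 and 7.91, close but apart, a log2 difference of 0.27 ± 0.11 (SE; adjusted p = 0.397).

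In the urea cycle, 7 of 8 genes had a higher mean in HKO, as did 10696 of all 22180 genes. Groups did not overlap for 4 of 8, all higher, beside 18.2% of all genes and 27.5% of those above log2 5. Of the 8, 3 had an unadjusted p under 0.05 (Cps1, Asl and Slc25a13), beside 11.9% and 21.4%. The route's median on the HKO arrays was 0.35, 0.15 and 0.09 above the Con mean in log2 units, in the order of replicates 1, 2 and 3, and between -0.01 and 0.04 on the Con arrays.

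Cps1, carbamoyl phosphate synthetase, brings ammonia into the cycle in the mitochondrion. It read 10.97, 10.91 and 10.94 in Con and 11.37, 11.15 and 11.11 in HKO. Con arrays were tightly grouped and HKO replicate 1 was the furthest above them. The log2 difference was 0.27 ± 0.11 (SE; 1.20-fold; adjusted p = 0.394), and it was 0.19 without HKO replicate 1. Otc, ornithine transcarbamylase, joins carbamoyl phosphate to ornithine. Its values were 10.45, 10.39 and 10.35 in Con and 10.70, 10.49 and 10.74 in HKO, apart by a narrow margin at HKO replicate 2, with a difference of 0.24 ± 0.11 (SE; adjusted p = 0.426).

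Asl, argininosuccinate lyase, releases arginine in the cytosol. It stood at 9.40, 9.39 and 9.25 in Con and at 9.84, 9.62 and 9.51 in HKO. All HKO values were higher, by 0.31 ± 0.12 (SE; 1.24-fold; adjusted p = 0.369) on the log2 scale. Slc25a13 is the mitochondrial carrier that exports aspartate for the step before Asl. Its readings were 9.29, 9.31 and 9.36 in Con and 9.72, 9.58 and 9.47 in HKO. These too were apart, with a log2 difference of 0.27 ± 0.10 (SE; adjusted p = 0.374).

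The other urea cycle genes overlapped between groups on their brightest probe sets. Arg1, arginase, which releases urea, stood at 0.06 (95% interval -0.25 to 0.38), and Slc25a15, the ornithine carrier, at -0.04 (-0.39 to 0.30). Nags, which makes the activator of Cps1, was at 0.13 (-0.12 to 0.39). Its second, dimmer probe set (mean 6.35) stood at 0.52 ± 0.15 (SE; limma unadjusted p = 0.0103), with all HKO values above all Con values. With its probe sets averaged, Nags had an unadjusted p under 0.05. Ass1, argininosuccinate synthetase, had the widest interval of the 36 genes. Its 1 probe set reads low for a gene known to be abundant in liver, and whether it measures the main transcript is not known, so its place among the 7 higher means carries little weight. Its array values ran from 3.91 (HKO replicate 3) to 5.82 (HKO replicate 1), and the interval of its difference from -1.01 to 1.14.

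**Figure D4:**
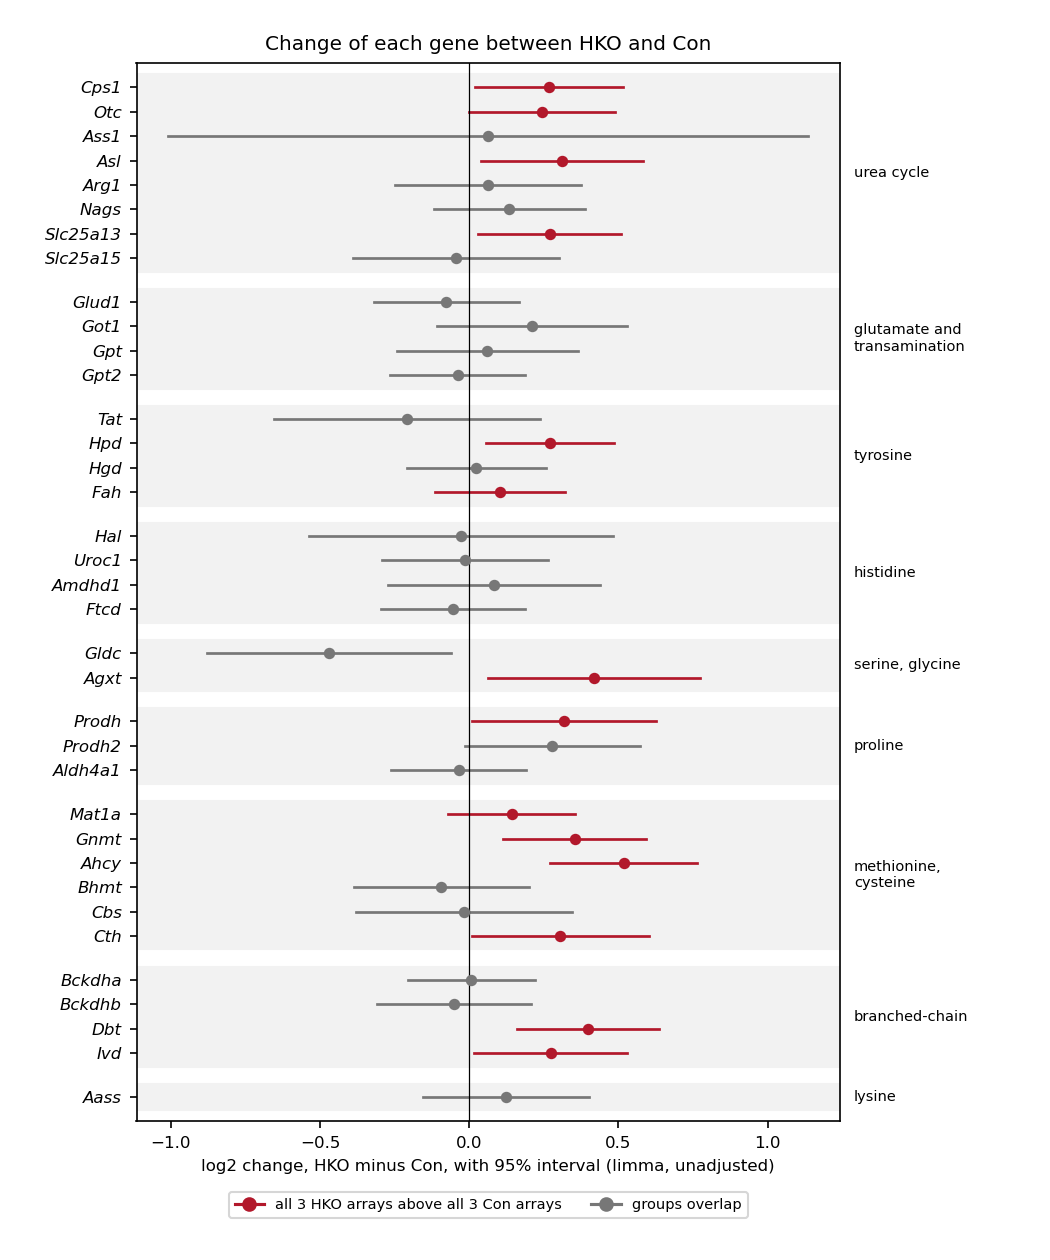
Log2 difference between HKO and Con for each of the 36 genes by route, with limma's unadjusted 95% interval; red marks genes whose HKO arrays all lie above all Con arrays. The 14 red genes include 4 of the urea cycle and 4 of the methionine route, and 0 genes lie wholly below Con. Of all genes, 8.05% lay wholly above Con and 10.1% wholly below.

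Genes that feed nitrogen into the cycle were close to level. None of the 4 measured genes of glutamate and transamination had groups that did not overlap or an unadjusted p under 0.05 in limma. The shares of all genes were 18.2% and 11.9%, and 27.5% and 21.4% above log2 5, so a count of 0 among 4 genes says little. Got1, the cytosolic aspartate aminotransferase, had the lowest p of them. Its values were 8.95, 8.92 and 8.71 in Con and 9.32, 8.96 and 8.92 in HKO, with HKO replicate 1 far above Con, replicate 2 just above it and replicate 3 within the Con range. The difference was 0.21 ± 0.14 (SE; adjusted p = 0.611), and 0.08 without HKO replicate 1 or 0.13 without Con replicate 3. The alanine aminotransferases Gpt and Gpt2 stood at 0.06 and -0.04, and glutamate dehydrogenase, Glud1, at -0.08, each with an interval that spans 0.

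Of the 4 measured genes of the tyrosine route, Hpd and Fah had HKO values wholly above Con values, and Hpd alone had an unadjusted p under 0.05 in limma. Of all genes, 8.05% lay wholly above and 11.9% had such a p. Among genes above log2 5, 27.5% had groups that did not overlap and 21.4% such a p. Tat, tyrosine aminotransferase, opens the route and is induced by glucagon and glucocorticoids. The Con arrays read 11.55, 11.54 and 11.10 and the HKO arrays 11.57, 10.93 and 11.07. HKO replicate 1 matched the upper Con arrays, and the other two lay just under the lowest one. Its log2 difference was -0.21 ± 0.19 (SE; adjusted p = 0.731) and -0.40 without HKO replicate 1 (adjusted p = 0.432), and -0.08 without HKO replicate 2.

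Hpd encodes hydroxyphenylpyruvate dioxygenase, the enzyme that follows Tat. It read 11.00, 10.95 and 11.01 in Con and 11.30, 11.25 and 11.22 in HKO. Both groups were tight and clearly apart, with a difference of 0.27 ± 0.09 (SE; 1.21-fold; unadjusted p = 0.0192, adjusted p = 0.322 in limma). It had an unadjusted p under 0.05 without each array in turn in 5 of 6 cases. Its start region is shown as that of the tyrosine gene with the lowest p (RefSeq GRCm38.p6, chr5:123182674-123182973, minus strand, E-boxes of the kind above in capitals).
Hpd: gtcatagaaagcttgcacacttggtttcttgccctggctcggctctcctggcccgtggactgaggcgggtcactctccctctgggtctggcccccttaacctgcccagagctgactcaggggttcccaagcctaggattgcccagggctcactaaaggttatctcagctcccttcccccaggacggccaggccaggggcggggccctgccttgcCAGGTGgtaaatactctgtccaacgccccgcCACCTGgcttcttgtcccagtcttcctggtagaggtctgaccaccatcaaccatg
This window holds 2 of the E-boxes, beginning 36 and 5 bases before the annotated start. Beside Gnmt and Hpd, the members with such E-boxes were Hgd (2) and Aldh4a1, Ass1, Gldc, Nags and Tat (1 each). Of these, Gldc (-0.47), Tat (-0.21) and Aldh4a1 (-0.04) had a lower mean in HKO. Hgd, Ass1 and Nags had a higher one, with overlapping groups.

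Fah, fumarylacetoacetase, ends the route. Values of 10.05, 10.10 and 10.01 in Con and 10.20, 10.17 and 10.10 in HKO were apart by less than 0.01 at their nearest, with a difference of 0.10 ± 0.09 (SE; adjusted p = 0.728). Hgd, homogentisate dioxygenase, lies between Hpd and Fah and was at 0.02 (95% interval -0.21 to 0.26).

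In histidine breakdown the mean differences lay near 0, from -0.05 to 0.08, while the HKO arrays were split. None of its 4 genes had groups that did not overlap or an unadjusted p under 0.05, beside 18.2% and 11.9% of all genes. The lowest p was that of Amdhd1, the imidazolonepropionase of the third step, which read 9.04, 9.15 and 9.04 in Con and 9.51, 8.97 and 9.00 in HKO. HKO replicate 1 was far above Con and the other two slightly below, and the log2 difference of 0.08 ± 0.16 (SE; adjusted p = 0.882) became -0.093 without HKO replicate 1.

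Hal, histidine ammonia-lyase, is the first step and a known periportal gene, named here after its values were seen. Its values were 9.49, 9.39 and 9.50 in Con and 10.01, 9.15 and 9.14 in HKO. The mean difference was -0.03, while HKO replicate 1 stood 0.86 above the mean of the other two HKO arrays. Without HKO replicate 1 the difference was -0.32 (adjusted p = 0.356). Uroc1 and Ftcd, of the second and the last step, were at -0.01 and -0.05, and HKO replicate 1 again held their highest value.

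The 2 measured genes of glycine and glyoxylate had mean differences of opposite sign. Gldc, the decarboxylase of the mitochondrial glycine cleavage system, was the 1 gene of the 36 with an unadjusted p under 0.05 and a lower mean in HKO. Its values were 8.74, 8.72 and 8.62 in Con and 8.65, 7.99 and 8.03 in HKO. HKO replicate 1 lay within the Con range and the other two well below it. The log2 difference was -0.47 ± 0.18 (SE; unadjusted p = 0.0288, adjusted p = 0.364), and -0.69 without HKO replicate 1 (adjusted p = 0.113).

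Agxt, alanine-glyoxylate aminotransferase, removes glyoxylate by making glycine. It read 8.21, 8.06 and 8.20 in Con and 8.82, 8.67 and 8.24 in HKO, where replicate 3 was barely above Con. Its difference was 0.42 ± 0.15 (SE; 1.34-fold; adjusted p = 0.355), and 0.30 without HKO replicate 1 against 0.58 without HKO replicate 3.

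In the proline route, Prodh, which oxidises proline, had values of 7.96, 7.70 and 7.97 in Con and 8.38, 8.22 and 7.99 in HKO. The groups were apart, HKO replicate 3 by only a small margin, with a difference of 0.32 ± 0.13 (SE; adjusted p = 0.412). Prodh2, which oxidises hydroxyproline, was similar in size at 0.28 (95% interval -0.02 to 0.57) with overlapping groups. Aldh4a1, the next enzyme for both, stood at -0.04 (-0.26 to 0.19). Aass, which opens lysine breakdown, was the only lysine gene listed. It read 9.38, 9.36 and 9.20 in Con and 9.62, 9.41 and 9.27 in HKO, which overlap, with a difference of 0.12 ± 0.12 (SE; adjusted p = 0.752) that was 0.03 without HKO replicate 1 and 0.20 without HKO replicate 3.

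Among 88 further amino acid genes measured of 96 listed (other enzymes, transporters and regulators), 0 passed the adjusted threshold in limma. At an unadjusted p under 0.05 were 18 of 88 (20.5%), 14 higher and 4 lower, beside 11.9% of all genes. Among genes above log2 5 the shares were close, 18 of 76 (23.7%) of these genes and 21.4% of all. Leaving out Con replicate 1 or Con replicate 2 left 10 of 88 (11.4%), beside 9.20% and 9.01% of all genes. Enzymes next to the members described above were among those at an unadjusted p under 0.05 over all arrays. Sardh, which removes the methyl group of the sarcosine that Gnmt makes, stood at 9.38, 9.45 and 9.49 in Con and 10.05, 9.67 and 10.00 in HKO, apart by 0.47 ± 0.13 (SE; adjusted p = 0.223) between the means. Ppm1k, the phosphatase that activates the branched-chain complex, read 8.33, 8.32 and 8.48 in Con and 8.98, 8.65 and 8.72 in HKO, a difference of 0.41 ± 0.12 (SE; adjusted p = 0.264). The opposing kinase Bckdk, picked after its values were known, was at -0.14 ± 0.10 (SE; adjusted p = 0.625). Dld, the E3 subunit of the branched-chain complex and picked in the same way, was also at -0.14 ± 0.10 (SE; adjusted p = 0.624). Both Bckdk and Dld were wholly lower in HKO. Hoga1, of hydroxyproline breakdown, was at 0.33 ± 0.10 (SE; adjusted p = 0.278), with groups that did not overlap.

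Of the other urea cycle and ammonia genes, 0 of 5 measured had an unadjusted p under 0.05, beside 11.9% of all genes. The lowest p were those of the aspartate carrier Slc25a12 (0.22), glutamine synthetase, Glul (-0.15), and ornithine aminotransferase, Oat (0.15). Transporters held the largest differences of these lists that were shared by all HKO arrays. At an unadjusted p under 0.05, 2 of 14 were higher and 3 lower (35.7% together), beside 11.9% of all genes and 21.4% of genes above log2 5. Slc43a1, a carrier of large neutral amino acids, stood at 3.84, 4.20 and 4.05 in Con, near the median gene level, and at 4.97, 5.62 and 4.94 in HKO, a log2 difference of 1.15 ± 0.19 (SE; adjusted p = 0.0835). Slc1a4, a carrier of small neutral amino acids, was lower on every HKO array, with 5.52, 5.37 and 5.02 in Con and 4.62, 4.54 and 4.55 in HKO, a difference of -0.73 ± 0.14 (SE; adjusted p = 0.113). Slc3a1, the heavy chain of the cystine carrier, was at -0.51 ± 0.17 (SE; adjusted p = 0.306).

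Regulators of these pathways gave 4 of 18 (22.2%) at an unadjusted p under 0.05, all higher. The share was 11.9% of all genes (5.31% higher) and 21.4% of genes above log2 5. Groups did not overlap for 2 of the 18 (11.1%), beside 18.2% of all genes. Crtc2, a coactivator in glucagon signalling, read 6.75, 6.96 and 6.87 in Con and 7.18, 7.35 and 7.46 in HKO, apart by 0.47 ± 0.12 (SE; adjusted p = 0.193) in their means. Ppargc1a, a coactivator of fasting genes, was at 0.34 ± 0.12 (SE; adjusted p = 0.342) and the pioneer factor Foxa1 at 0.67 ± 0.26 (SE; adjusted p = 0.383). For Foxa1, HKO replicate 1 (7.09) lay within the Con range of 6.87 to 7.30 and the other two HKO arrays above it (7.92 and 8.19), and the difference was 0.99 without HKO replicate 1 (adjusted p = 0.131). Onecut1, a hepatocyte transcription factor chosen after its values were seen, also set HKO replicate 1 apart, with the other two HKO arrays far above Con, whereas those of Hal and Gldc lay below it. It read 5.76, 5.66 and 5.39 in Con, 5.29 on HKO replicate 1, and 9.10 and 8.87 on HKO replicates 2 and 3. Over all arrays its limma p was 0.0378 unadjusted, which makes it 1 of the 4, and 0.394 adjusted.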

How the data were processed

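RNA from the livers of 3 Con and 3 HKO mice was hybridised to Affymetrix arrays that cover whole transcripts, each mouse on its own array. The deposited table holds 1 log2 value for every probe set on each array; the authors used RMA and R 3.3.0, according to the submitters' processing notes. RMA removes background, gives the arrays a common distribution and summarises probes. Differences of dim genes may come out too small in such values, which was not tested here. Neither the array design's genome build nor any later filter is stated in the labels. Arrays have no read depth, and their number limits the precision.

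Of 41345 probe sets, a platform annotation named 1 gene for 23521, several for 1814 and none for 16010. A RefSeq table of GRCm38.p6 held the Entrez identifiers of 23328 of the probe sets with 1 gene. Each gene was read on its brightest probe set (mean over the 6 arrays), leaving 22180 genes with no filter on low values. Groups were compared with limma 3.58.1 under R 4.3.3 (lmFit, then eBayes, two-sided); p-values were adjusted by Benjamini and Hochberg's method across the 22180 genes, at a threshold of 0.05. Standard errors and intervals of single genes are limma's, and SDs are over the 3 arrays of a group. The steps were tested on simulated data. Figures were drawn with matplotlib 3.10.9.

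The members and gene lists were chosen with earlier results of these data known. Array values are given for each member at an unadjusted p under 0.05 or with groups that do not overlap, for the lowest p of each route, and for Cps1 and Tat, and of the other amino acid genes up to 3 per list with the lowest p are named. Where a gene falls outside this rule, the text says that its values were already known. Alternatives were another round of quantile normalization, centring, leaving out dim genes, averaging a gene's probe sets or testing each singly, other variance models, array weights, a replicate block and leaving out each array.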

Additional observations from a re-analysis of the deposited data

How the results depend on the processing

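The median log2 difference of the 36 genes stayed above 0 under every alternative run, lowest without HKO replicate 1 (0.02) and highest without HKO replicate 3 (0.17). The count of members past adjusted p 0.05 was 0 except in 2 settings. With genes above log2 5 it was 1 of 34 (Ahcy), beside 242 of 8120 genes. With a variance trend it was 2 of 36 (Ahcy and Dbt), beside 215 of 22180. The other amino acid genes passing were 1 of 76 (Crtc2) and 2 of 88 (Slc1a4 and Slc43a1) in these settings. They were 2 of 83 with genes above the median level (Slc1a4 and Slc43a1), beside 138 of 11090 genes. Without HKO replicate 1 they were 1 of 88 (Onecut1), beside 25 of 22180. Elsewhere their count was 0. Leaving out each array gave 3 (without Con replicate 2) to 10 members (without HKO replicate 3) at an unadjusted p under 0.05, with 6 without Con replicate 1 and 7 without HKO replicate 1, and 14 to 22 members whose groups did not overlap, where the shares of all genes were 9.01% to 11.6% and 27.2% to 30.1%. Amdhd1 ran from -0.093 (without HKO replicate 1) to 0.18. Fewer arrays enter those fits. The log2 difference of Snai2 ran from -2.69 to -2.15 there. At -2.43 it missed the threshold with every probe set on its own (adjusted p = 0.0910), without shared variance (0.234) and with the replicate block (0.0540), and it missed it without Con replicate 1 (0.0758), Con replicate 2 (0.0927) or HKO replicate 2 (0.0621).

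Deviations of same-numbered Con and HKO arrays correlated at 0.03, 0.02 and 0.02, each array best with its own number, too weakly to treat the numbers as pairs. With the replicate block, 8 of 36 members (22.2%) had an unadjusted p under 0.05, 7 of them higher, beside 11.5% of all genes (5.21% higher), and 3 genes of all passed adjusted p 0.05 in place of 45.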

Other observations

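The probe set that the annotation gives to both Gstz1, maleylacetoacetate isomerase of the tyrosine route, and Pomt2 stood outside every comparison. It read 10.69, 10.63 and 10.62 in Con and 10.61, 10.62 and 10.58 in HKO, a log2 difference of -0.04 ± 0.09 (SE; limma unadjusted p = 0.674), and its signal cannot be assigned to either gene.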
